A study of Drosophila montana with 9 samples.

Results

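Whole females of the northern malt fly *Drosophila montana* that had been kept for 14 days in reproductive conditions were compared with newly emerged 1-day-old females on a candidate gene microarray. The comparison used 6 of the 9 arrays of the series, 3 of reproducing and 3 of young females, and all genes of the array were members: 101 candidate genes and 7 housekeeping genes, measured by 197 of the 208 experimental probes. Reproducing females (replicates 22, 23 and 40) were 14 days old and had been held in continuous light (24 h per day) at 16 °C. Young females (replicates 12, 16 and 17) were 1 day old and were frozen straight from the culture, in continuous light (24 h per day) at 19 °C. Both groups came from the isofemale line O3F66, so a single genetic background was sampled, and each array carried RNA of 13 pooled females. Age, reproductive state and temperature differed together between the groups and cannot be told apart. The third group of the series, females of 14 days in diapause, entered the joint normalization of all 9 arrays and the estimate of spread. It therefore also bears on the values below, and its own levels are not described.

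A female fly emerges with an unfinished cuticle and immature ovaries. Over the following days the cuticle hardens and darkens through products of dopamine. In reproductive conditions the ovaries fill with yolk and with RNAs that the mother lays down for the embryo, chaperone RNAs among them. Because RNA came from the whole body, fewer cells of a type and less RNA per cell cannot be told apart.

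The array of reproducing replicate 40 stood apart. Its normalized values correlated across probes with those of the other 5 arrays at 0.87 to 0.93, while all pairs among those 5 lay between 0.95 and 0.99. It also had the fewest probes well above background, 120 of 197, against 134 to 142 on the other 5 arrays. Differences of most genes described are therefore given with and without it. Signals were well above background on all 6 arrays for 69 genes and on none of them for 15 genes. Values below are normalized log2 intensities, which compare arrays for a gene and not genes with each other, and differences are reproducing minus young.

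A gene was called where limma gave a Benjamini-Hochberg adjusted p under 0.05 together with a change of more than 2-fold, which held for 9 genes (8.33% of all those tested), 7 lower (6.48%) and 2 higher (1.85%) in reproducing females. At an unadjusted p under 0.05 there were 25 genes (23.1%), 22 lower and 3 higher. In 32 genes (29.6%) the 3 reproducing arrays did not overlap the 3 young arrays, 26 lower and 6 higher. Without reproducing replicate 40 limma called 4 genes (3.7%), all among the 9: *Ddc*, *slo*, *cpo* and *tilB*. Without young replicate 16 or young replicate 17 it called 0, with 14 and 16 genes at an unadjusted p under 0.05, so every call below needed both of these arrays. The median log2 difference of all genes was -0.14 and was 0.00 without reproducing replicate 40. With the processed signal (background-subtracted) and 75th percentile scaling in place of VSN of the mean signal, the median was 0.10 and 20 genes were called, 11 higher and 9 lower. The same signal scaled to the housekeeping genes gave 8 calls, 3 higher and 5 lower, so the balance of higher and lower genes changed with the signal and its scaling.

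**Figure D1:**
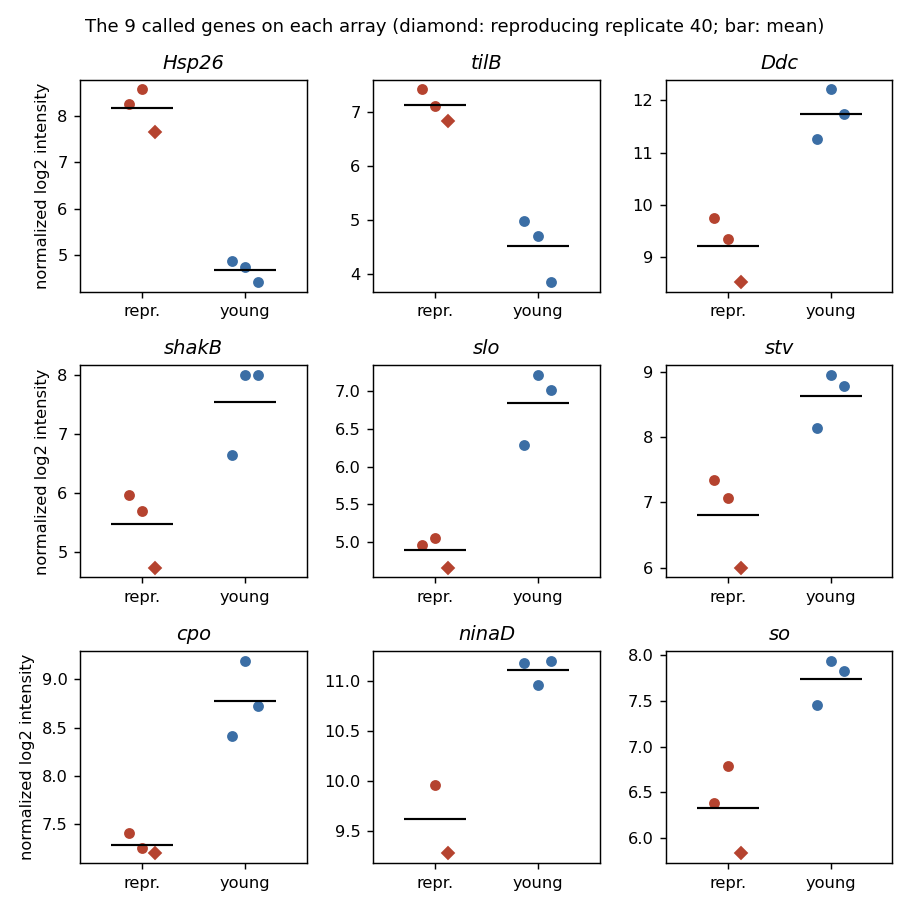
Normalized log2 intensity (vertical axis) of each of the 9 called genes on the arrays of reproducing (left, red) and young females (right, blue). Each point is an array, the diamond is reproducing replicate 40 and the bar is the group mean. In all 9 genes the groups did not overlap.

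The probes behind the genes that moved most are shown because each call rests on what these 60-base oligonucleotides bound. The probes were designed by the authors in exons of *D. montana*, and neither their genome positions nor the strand they read is given in the files. The strand was not settled here for any probe, so a signal may not be that of the messenger RNA. The 2 probes of *Ddc* cover separate stretches, and of the 2 probes of *cpo* only the first gave a signal well above background on all 6 arrays.
Hsp26: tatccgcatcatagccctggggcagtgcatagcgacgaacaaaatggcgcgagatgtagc
tilB: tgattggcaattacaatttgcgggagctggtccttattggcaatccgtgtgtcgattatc
Ddc, first probe: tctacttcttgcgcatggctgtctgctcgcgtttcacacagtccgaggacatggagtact
Ddc, second probe: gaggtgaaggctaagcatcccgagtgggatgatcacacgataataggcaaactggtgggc
cpo, first probe: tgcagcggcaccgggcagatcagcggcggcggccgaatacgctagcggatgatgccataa
cpo, second probe: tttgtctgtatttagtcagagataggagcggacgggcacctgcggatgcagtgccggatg
slo: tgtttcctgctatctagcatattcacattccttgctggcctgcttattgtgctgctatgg

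The probes of both genes called higher stayed near background in young females. *Hsp26* encodes a small heat shock protein, whose RNA is known from the ovary of *D. melanogaster*. It was at 8.26, 8.57 and 7.66 on the reproducing arrays, against 4.87, 4.73 and 4.41 on the young arrays, where its probe was not well above background. In raw mean signal these were 377, 446 and 269 in reproducing females, against 75.2, 59.6 and 62.0 in young females. *Hsp26* thus exceeded young females by at least 8.9-fold (limma adjusted p = 0.0267). This bound sets the mean of the bright group against the lowest detectable value on each dim array. Without reproducing replicate 40 it was at least 7.08-fold higher, with an adjusted p of 0.0681 (limma), which no longer passed. The bound holds for VSN of the mean signal, and over the processing alternatives the fitted log2 difference ran between 2.29 and 5.55. Which strand this single probe reads was not settled here, so its signal may not be that of the messenger RNA.

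*tilB*, needed in *D. melanogaster* for the hearing organ of the antenna, was at 7.41, 7.11 and 6.82 on the reproducing arrays and at 4.98, 4.71 and 3.86 on the young arrays. Its single probe was well above background on all 3 reproducing arrays and on none of the young ones. Reproducing females exceeded young ones by at least 4.3-fold (limma adjusted p = 0.0253). Leaving out reproducing replicate 40 gave at least 3.39-fold with an adjusted p of 0.0411 (limma).

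*Ddc*, which encodes the dopa decarboxylase that makes dopamine for cuticle hardening and signalling, was at 9.75, 9.35 and 8.52 on the reproducing arrays, against 11.26, 12.21 and 11.75 on the young arrays. The log2 difference was -2.53 ± 0.41 (SE), a 5.79-fold down-regulation (limma adjusted p = 0.0102). Both probes moved alike, by -2.34 and -2.72. Without reproducing replicate 40 the difference was -2.15 ± 0.39 (SE, limma adjusted p = 0.0316).

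The other genes of amine and pigment chemistry lay on the same side. *b* (*black*), which makes the beta-alanine used in tanning, was at 10.66, 10.37 and 9.01 in reproducing females and at 11.19, 11.92 and 11.21 in young females. Its groups did not overlap, but the difference of -1.43 ± 0.51 (SE) was not called (limma adjusted p = 0.14) and was -0.92 without replicate 40. *e* (*ebony*), whose product joins beta-alanine to dopamine, was at 5.83, 6.24 and 5.68 in reproducing females and at 6.43, 6.66 and 6.49 in young females, a difference of -0.61 ± 0.26 (SE, limma adjusted p = 0.196), and of -0.32 without replicate 40. This mean joins unequal probes. The brighter probe of *e* overlapped between the groups and differed by -0.32 with all arrays. The other differed by -0.90 and was well above background on none of the reproducing and 2 of the young arrays. The summed level of *Ddc*, *e* and *b* on the linear scale was 936 to 2535 in reproducing females, against 4882 to 8715 in young females. The dim *e* added little to this sum.

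*cpo* (*couch potato*), an RNA-binding protein gene linked to diapause in *D. melanogaster*, was at 7.41, 7.24 and 7.19 on the reproducing arrays and at 8.41, 9.20 and 8.72 on the young arrays. The log2 difference was -1.50 ± 0.25 (SE, limma adjusted p = 0.0102), and -1.39 (limma adjusted p = 0.0316) without reproducing replicate 40. This mean joins unequal probes. The first probe had raw mean signals of 1019, 990 and 707 in reproducing females against 3833, 6807 and 5115 in young females, a log2 difference of -2.88, while the second lay near background on all 6 arrays and differed by -0.11.

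The remaining diapause genes gave little. *CoI*, a mitochondrial gene of the respiratory chain, was at 15.20, 15.05 and 14.01 in reproducing females and at 16.05, 16.22 and 16.10 in young females. The groups were apart, and the difference of -1.37 ± 0.42 (SE) was not called (limma adjusted p = 0.0919), and without replicate 40 it was -0.998 (limma adjusted p = 0.248). *InR*, the insulin receptor, was at 5.83, 5.39 and 5.29 in reproducing females and at 5.62, 6.01 and 6.23 in young females, so the groups overlapped (difference -0.45, and -0.24 without replicate 40). *Pi3K92E*, a kinase of the same pathway, was not well above background on any of the 6 arrays.

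Among channel and synapse genes, *slo* and *shakB* were called lower. *slo*, the calcium-activated potassium channel, was at 4.96, 5.06 and 4.67 on the reproducing arrays and at 6.28, 7.21 and 7.01 on the young arrays. The difference was -1.94 ± 0.29 (SE, limma adjusted p = 0.0102). Its probe was well above background on 2 of 3 reproducing and on 3 of 3 young arrays, and without reproducing replicate 40 the difference was -1.37 (limma adjusted p = 0.0316).

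*shakB* encodes an innexin of electrical synapses and was at 5.97, 5.70 and 4.73 in reproducing females, against 6.64, 8.00 and 8.00 in young females. All 3 reproducing arrays lay below all 3 young ones, and the lowest young array was close to the highest reproducing one. The difference was -2.08 ± 0.45 (SE, limma adjusted p = 0.0267), and -1.44 (limma adjusted p = 0.0697) without reproducing replicate 40, which ended the call. *Slob*, which binds the *slo* channel, was at 5.52, 5.54 and 5.28 in reproducing females and at 5.78, 6.67 and 6.57 in young females, a difference of -0.89 ± 0.33 (SE, limma adjusted p = 0.16), and of -0.63 without replicate 40. The *Slob* probes were unequal: the brighter differed by -1.63, and the other, near background, by -0.15. Of the 9 neuronal genes listed, 2 were called lower, beside 6.48% of all genes, and none higher. At an unadjusted p under 0.05 there were 4 lower, beside 20.4% of all genes. Neither of the defining neuronal markers *syt* and *para* was well above background on any of the 6 arrays. Each was read by a single probe whose strand was not settled here, so its messenger RNA may have gone unread.

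*so* (*sine oculis*), a homeobox gene of eye development placed on the array as a clock gene, was at 6.38, 6.78 and 5.83 in reproducing females and at 7.46, 7.94 and 7.83 in young females. The groups did not overlap. The difference was -1.41 ± 0.32 (SE, limma adjusted p = 0.0267), and -1.02 (limma adjusted p = 0.0681) without reproducing replicate 40.

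*ninaD*, a receptor that takes up carotenoids for the visual pigment, had 1 probe, whose spot was marked as an outlier on reproducing replicate 22. It was at 9.96 and 9.28 on the 2 remaining reproducing arrays and at 11.17, 10.95 and 11.20 on the young arrays. The difference was -1.49 ± 0.31 (SE, limma adjusted p = 0.0272). Without replicate 40 a single reproducing array was left, assumed to vary like the other groups, and the difference of -1.14 was not called (limma adjusted p = 0.0681).

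Of the clock genes proper none was called. *Clk*, the activator of the clock loop, was at 5.01, 4.61 and 4.27 in reproducing females and at 5.32, 5.54 and 5.24 in young females. It was well above background on 1 of 3 reproducing and on 3 of 3 young arrays, and the difference was not called (-0.74 ± 0.26 SE, limma adjusted p = 0.14) and was -0.33 without replicate 40. *per*, whose protein closes the loop, differed by -0.11 ± 0.24 (SE) as the mean of 3 probes, of which only 1 was well above background on any of the 6 arrays. That probe was at 6.48, 6.18 and 5.36 in reproducing females and at 6.58, 6.91 and 6.71 in young females. Its groups did not overlap, and its difference of -0.73 ± 0.36 (SE) was not called (limma adjusted p over all probes = 0.332). A *per* probe outside the 197 is its reverse complement over 34 bases. That probe had raw signals of 83.8, 83.6 and 64.2 in reproducing females, against 74.7, 71.6 and 73.1 in young females. Its normalized difference was -0.10. Which of these 2 probes reads the messenger RNA was not settled here. *tim*, the partner of *per*, was not well above background on any of the 6 arrays. *vri*, a clock repressor, was well above background on 2 of 3 reproducing arrays and on none of the young ones, with a mean difference of -0.06 ± 0.26 (SE). Only its first probe was well above background on any of these arrays, and that probe differed by 0.46 ± 0.37 (SE). The others differed by -0.13 and -0.51.

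In the clock kinase, phosphatase and F-box group, *slmb*, which targets clock and signalling proteins for breakdown, was at 10.57, 10.09 and 9.45 in reproducing females and at 8.47, 8.98 and 8.81 in young females. The groups were apart and the difference was 1.28 ± 0.55 (SE, limma adjusted p = 0.202), and 1.53 without replicate 40. *tws*, a subunit of protein phosphatase 2A, was at 7.03, 6.51 and 6.32 in reproducing females and at 5.63, 6.16 and 5.62 in young females, a difference of 0.82 ± 0.38 (SE, limma adjusted p = 0.263), and of 0.78 without replicate 40. Neither was called. Over all 26 circadian genes, 2 were called lower, beside 6.48% of all genes, and none higher, and the median difference was -0.07, beside -0.14 for all genes. With the 75th percentile scaling it turned to 0.36, and the differences of *per* and *vri* turned sign there as well.

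**Figure D2:**
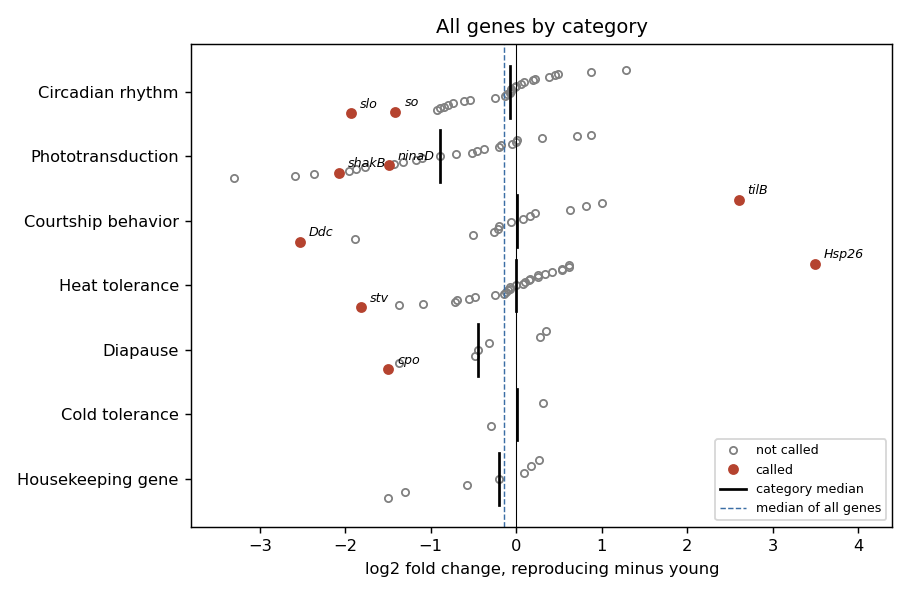
Log2 difference, reproducing minus young (horizontal axis), of all genes by category (vertical axis). Filled red points are called genes, open points are genes not called, black bars are category medians and the dashed line is the median of all genes. The phototransduction median of -0.90 lies farthest below 0.

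Phototransduction genes had the lowest median of the categories over all arrays, and the size of the difference depended on 1 array. Of 25 genes, 21 had a lower mean in reproducing females, 2 were called lower (*shakB* and *ninaD*), beside 6.48% of all genes, and 10 had groups that did not overlap, all lower, beside 24.1% of all genes. Their median difference was -0.90 and was -0.36 without reproducing replicate 40, beside -0.14 and 0.00 for all genes. It stayed below 0 under every processing alternative, between -1.17 and -0.21. Within slides, each of which held 1 array of either group, the median of the category was -0.08 for replicates 22 and 12, -0.56 for 23 and 16, and -1.92 for 40 and 17. The category was not lowest throughout: housekeeping genes had a lower median on the first of these slides (-0.22) and in the deposited table (-0.57, against -0.51 for phototransduction), and diapause genes on the second slide (-0.62).

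*ninaE*, the main rhodopsin of the fly eye, was at 14.66, 14.71 and 9.36 in reproducing females, against 14.57, 15.12 and 14.91 in young females. Replicates 22 and 23 thus lay at the level of young females while replicate 40 lay far below. The difference was -1.96 with all arrays and -0.18 ± 0.73 (SE) without replicate 40, and neither was called. The ultraviolet rhodopsin gene *Rh3* was at 10.93, 10.55 and 6.95 in reproducing females and at 11.94, 10.03 and 11.76 in young females (difference -1.77, and -0.51 without replicate 40). The low value on young replicate 16 came from 1 of the 2 *Rh3* probes. That probe was at 7.75 there, against 11.80 and 11.59 on young replicates 12 and 17, and differed by -1.17. The other was at 11.06, 10.91 and 7.26 in reproducing females and at 12.08, 12.30 and 11.94 in young females. Its groups did not overlap, and its difference of -2.36 was not called (limma adjusted p over all probes = 0.419). For the blue rhodopsin gene *Rh5* the values were 8.89, 9.12 and 7.12 in reproducing females and 8.72, 10.11 and 9.82 in young females (difference -1.17, and -0.53 without replicate 40).

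*Gbeta76C*, the beta subunit of the visual G protein, had the largest decrease of any gene, -3.30 ± 1.31 (SE), and was not called (limma adjusted p = 0.196). It was at 10.59, 10.50 and 5.41 in reproducing females and at 11.65, 12.38 and 12.36 in young females, and the difference without replicate 40 was -1.56 (limma adjusted p = 0.304). *ninaC*, a myosin of the photoreceptor, was at 6.36, 6.01 and 3.90 in reproducing females and at 7.52, 8.08 and 8.44 in young females, a difference of -2.59 ± 0.91 (SE, limma adjusted p = 0.14), and of -1.59 without replicate 40. In both genes the other reproducing arrays also lay below every young array.

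*Arr2*, the arrestin that switches rhodopsin off, was at 12.97, 13.12 and 7.90 in reproducing females and at 13.39, 13.86 and 13.85 in young females (difference -2.37 ± 1.33 SE, and -0.65 without replicate 40). *inaD*, the scaffold of the cascade, was at 10.45, 10.70 and 7.17 in reproducing females and at 11.06, 11.46 and 11.45 in young females (difference -1.88 ± 0.95 SE, and -0.74 without replicate 40). *CdsA*, which recycles the lipid of the cascade, was at 9.83, 9.08 and 7.77 in reproducing females and at 10.24, 10.35 and 10.05 in young females (difference -1.32 ± 0.70 SE, and -0.75 without replicate 40). None of these 3 genes was called, and reproducing replicate 40 was lowest in each.

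*inaC*, the eye protein kinase C, was at 4.15, 3.60 and 3.90 in reproducing females, not well above background on any of these arrays, and at 4.81, 4.66 and 4.87 in young females. Of its 2 probes, 1 was detected above background on all 3 young arrays and the other on none. The gene was not called (limma adjusted p = 0.0623), and no fold is given because the mean of both probes in young females lay no higher than the detection level. For *trp*, the light-gated channel, the values were 4.69, 4.89 and 4.96 in reproducing females, none well above background, and 4.98, 5.45 and 5.25 in young females. For the mean of both probes the bound was at least 1.22-fold lower in reproducing females, and at least 1.14-fold without replicate 40. The gene was not called (limma adjusted p = 0.387). Only 1 *trp* probe was well above background, on all 3 young arrays, and it differed by -0.74. The other was above background on none of the 6 arrays and differed by -0.02. All 13 listed photoreceptor genes had a lower mean in reproducing females with every array in, *inaF* by less than 0.01 and with a sign that turned under 6 processing alternatives. Without replicate 40 the difference of *Arr1* turned to 0.35, against -0.71 with it, and that of *inaF* was 0.00. The summed level of the 13 genes was 4925 on replicate 40 and up to 72913 in the group, against 64212 to 88726 in young females. The brightest genes, *ninaE*, *Arr1* and *Arr2*, made up most of this sum. The part of the low photoreceptor signal of replicate 40 in the other differences was not tested.

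**Figure D3:**
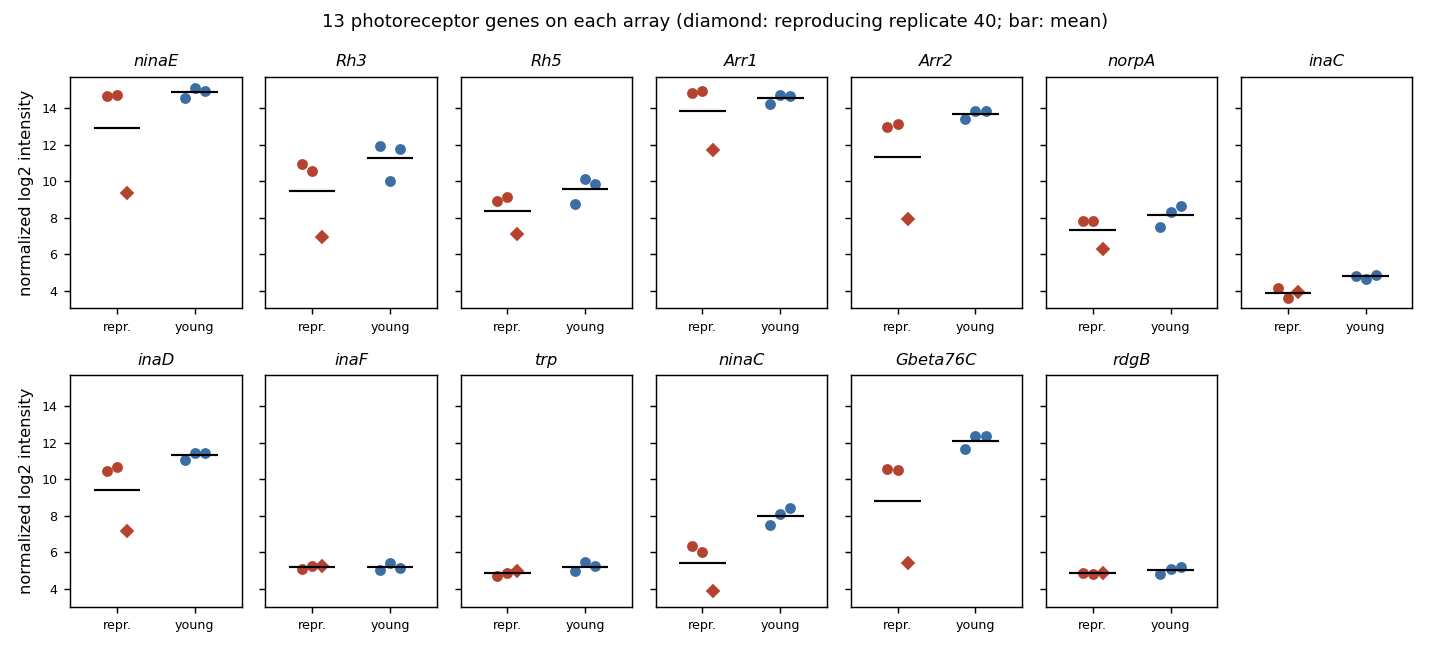
Normalized log2 intensity (vertical axis) of 13 photoreceptor genes on the arrays of reproducing (left, red) and young females (right, blue). The diamond is reproducing replicate 40 and the bar is the group mean. For *ninaE* the circles of both groups lie between 14.57 and 15.12 and the diamond is at 9.36.

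Heat tolerance genes showed no common direction. Of 27 genes, *Hsp26* was called higher and *stv* lower, and the median difference was 0.00. *stv* (*starvin*), a co-chaperone of the Hsp70 family, was at 7.34, 7.07 and 6.003 in reproducing females and at 8.14, 8.95 and 8.78 in young females. The difference was -1.82 ± 0.41 (SE, limma adjusted p = 0.0267), and -1.31 (limma adjusted p = 0.0681) without reproducing replicate 40.

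*Hsp20*, another small heat shock gene, lay opposite to *Hsp26*. It was at 11.62, 11.79 and 10.25 in reproducing females and at 12.61, 12.70 and 12.46 in young females, with all 3 probes lower, by -1.21 to -1.63. The gene was not called (-1.37 ± 0.40 SE, limma adjusted p = 0.0842), and the difference without replicate 40 was -0.88 (limma adjusted p = 0.0681). *Hsc70-2*, of the constitutive Hsp70 family, was at 4.85, 5.21 and 4.69 in reproducing females and at 5.76, 6.28 and 5.98 in young females (-1.10 ± 0.39 SE, limma adjusted p = 0.14, and -0.65 without replicate 40). *CG14650*, with a J domain that works with Hsp70, differed by -0.55 ± 0.23 (SE, limma adjusted p = 0.196), and by -0.25 without replicate 40.

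*Hsc70-4*, the most used constitutive Hsp70 of the fly, was at 8.33, 8.07 and 8.23 in reproducing females and at 7.90, 7.47 and 7.39 in young females. The groups were apart and the difference of 0.62 ± 0.49 (SE) was not called (limma adjusted p = 0.497) and was 0.57 without replicate 40. The array also held a complementary probe for this gene, left out of the 197, and both are shown because 33 of their bases (in capitals) are the reverse complement of each other.
Hsc70-4, used: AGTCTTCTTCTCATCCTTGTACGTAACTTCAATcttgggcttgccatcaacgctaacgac
Hsc70-4, complementary: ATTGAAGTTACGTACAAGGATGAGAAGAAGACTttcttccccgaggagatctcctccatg

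The probe used had raw signals of 469, 383 and 450 in reproducing females, against 311, 240 and 227 in young females. The complementary probe gave 10448, 6598 and 3430 in reproducing females, against 3335, 4168 and 3026 in young females. The normalized difference was 0.56 for the probe used and 0.53 for the complementary one. Of the 9 genes known for maternal or ovarian RNA, 7 had a higher mean in reproducing females, 1 was called higher (*Hsp26*), beside 1.85% of all genes, 4 had groups that did not overlap, all higher, beside 5.56% of all genes, and the summed level was 2100 to 3848 in reproducing females, against 1323 to 1665 in young females. None of these genes is restricted to the ovary. Which strand a probe reads was not settled here for any gene, *Hsp26* and *Hsc70-4* included. The signal of a probe may therefore not be that of the messenger RNA.

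Courtship genes went both ways, with *tilB* called higher and *Ddc* lower among 14 and a median difference of 0.01. *ari-1*, a ubiquitin ligase gene, was at 9.31, 8.81 and 5.98 in reproducing females and at 9.40, 10.15 and 10.22 in young females, a difference of -1.89 ± 0.80 (SE, limma adjusted p = 0.196), and of -0.83 without replicate 40. *nonA*, an RNA-binding protein gene of courtship song, was at 5.20, 4.83 and 5.97 in reproducing females and at 4.68, 4.77 and 4.66 in young females, where it was not well above background. The excess in reproducing females was at least 1.25-fold (limma adjusted p = 0.308), and at least 1.02-fold without replicate 40. It came mostly from 1 of its 3 probes on that array, with a raw signal of 245, against 80.7 and 76.2 on replicates 22 and 23.

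Neither cold tolerance gene was called. *Dca*, a gene of cold response, was at 10.50, 10.21 and 9.84 in reproducing females and at 10.58, 10.31 and 10.56 in young females (difference -0.30, which turned to 0.33 at most under 5 of 14 processing alternatives, and -0.10 without replicate 40). *Prp5*, the other gene of the category, differed by 0.31 with overlapping groups.

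Of the 7 housekeeping genes limma called 0, and 2 had an unadjusted p under 0.05. *Gapdh1*, of glycolysis, was at 15.09, 14.74 and 12.64 in reproducing females and at 15.50, 15.81 and 15.66 in young females, and the difference of -1.50 was -0.74 without replicate 40. *RpL19*, a ribosomal protein gene, was at 7.22, 9.16 and 9.40 in reproducing females and at 10.02, 9.74 and 9.92 in young females (difference -1.30, and -1.62 without replicate 40), and here replicate 22 was the lowest. It was read by a single probe whose strand was not settled here, so this may not be a difference in its messenger RNA. The other ribosomal protein genes *RpL27A* and *RpL11* differed by -0.58 and 0.26, *Gapdh2* by -0.20, *Ef1alfa48D* of translation by 0.17 and *eIF-4a*, an initiation factor, by 0.09. The sign turned under at least 1 of the processing alternatives for *Gapdh2*, *Ef1alfa48D* and *eIF-4a*.

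The within-slide differences had the same sign on every slide that gave a value in all 9 called genes. Groups that do not overlap give this under any pairing of arrays, so the sign is no further support. For *Ddc* they were -1.52 (replicates 22 and 12), -2.86 (23 and 16) and -3.22 (40 and 17). *slo* gave -1.32, -2.15 and -2.35 in the same order, and *shakB* -0.68, -2.29 and -3.27. In most of the lower genes the slide of replicates 40 and 17 gave the widest difference, whereas *cpo* was widest on the slide of 23 and 16 (-1.95, against -1.01 and -1.53 on the others). With slide as a block in the model, limma called 4 genes: *tilB* higher and *Ddc*, *slo* and *cpo* lower. The calls of *Hsp26*, *shakB*, *so* and *stv* were lost (limma adjusted p = 0.0517 each), as was that of *ninaD* (limma adjusted p = 0.223).

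**Figure D4:**
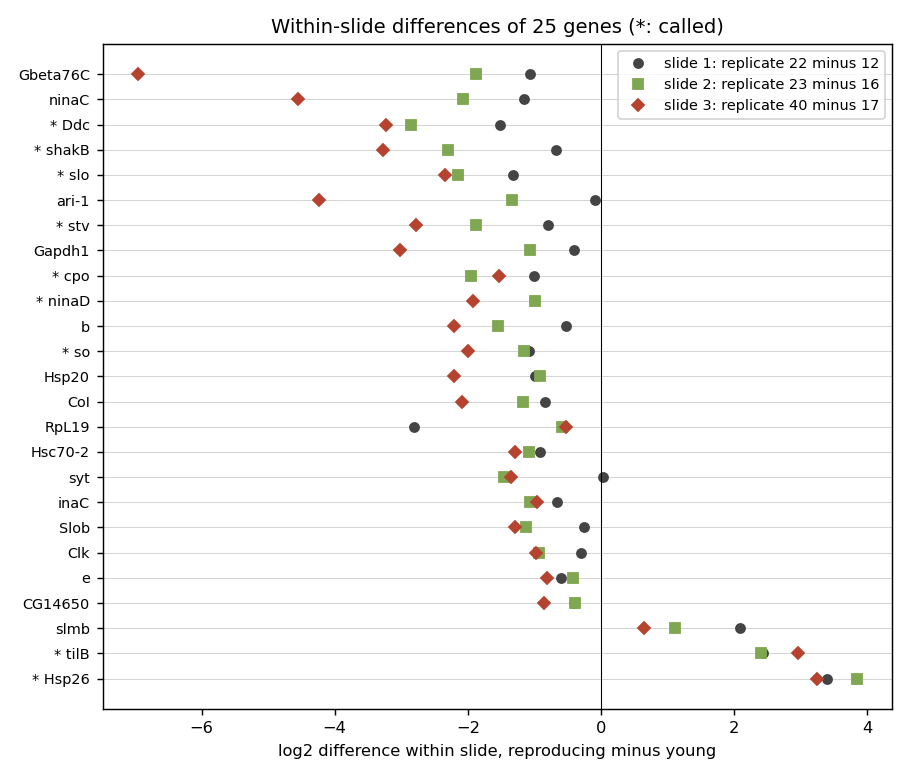
Within-slide log2 difference, reproducing minus young (horizontal axis), of the 25 genes with an unadjusted p under 0.05 (vertical axis, asterisk for called genes). Symbols are the 3 slides, each with 1 array of either group. For *Gbeta76C* the difference was -1.06, -1.88 and -6.95 on the 3 slides.

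Genes with several probes gave a check within the array. Of 66 such genes, 41 had all probes on the same side of 0. Of the 9 called genes only *Ddc* and *cpo* had more than 1 probe, so 7 calls rested on a single sequence. When probes were tested one by one, limma called 9 of 197, 2 higher and 7 lower. They did not stand for the same 9 genes. Both probes of *Ddc* were among them, and the only probe of *ninaD* was not (limma adjusted p over all probes = 0.0635).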

How the data were processed

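Expression was measured on 9 one-colour arrays. As deposited by the authors, the scanner files hold intensity values per spot made by Feature Extraction (version 9.5.1.1 in the file headers), not scaled between arrays: mean signal, local background and a background-subtracted processed signal. A deposited table of processed intensities, with scale and normalization unstated, served as an alternative only.

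Outlier-marked spots were left out and copies of a probe averaged. VSN, following the methods, was fitted on experimental and spike-in probes (trimming quantile 0.5, 5 slices, 7 trimming rounds) with code written anew in R 4.3.3. The trimming did not settle but alternated between 2 selections. The number of rounds was set after both had been seen, at the one whose values matched an earlier analysis of these data, and 6 rounds is given as an alternative. The log2 values of the probes of a gene were averaged. The plan named every probe of a tested gene as the main set. After 6 of them were seen to be reverse complements of other probes and 1 a repeat, the 197 probes of the deposited table, the number in the methods, were used instead, and the full set became an alternative.

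Genes were tested with limma 3.58.1 over all 9 arrays, with Benjamini-Hochberg adjustment over all genes of the array. The procedure was tested on simulated data with even noise and no array that stood apart, so that test does not cover arrays like reproducing replicate 40. Genes named were the called genes, those at an unadjusted p under 0.05, those whose groups did not overlap, and for each category the largest changes. Members, lists and rule were chosen with earlier results of these data known. Summed levels of lists are sums of normalized values on the linear scale, so the brightest genes of a list weigh most. P-values measure the spread between pooled samples, and the number of arrays limits the precision. Of the alternatives, 6 trimming rounds and the full probe set were chosen after seeing the data. Plots were made in matplotlib 3.10.9 under Python 3.11.15.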

Additional observations from a re-analysis of the deposited data

Results flagged for a closer look

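Of the probes outside the 197, 2 gave a signal in which every reproducing array lay above every young array and the reproducing arrays were well above background. The first probe of *Actin42A* had a raw mean signal of 219 in reproducing females, against 71.5 in young females, while the second probe of that gene had 238 in reproducing and 354 in young females. The first probe of *Histone 3.3A* averaged 24033 in reproducing females (31242, 23378 and 17480), against 10088 in young females (8652, 13065 and 8546). Its second probe had 10634, 9306 and 2364 in reproducing females, against 4277, 5870 and 4133 in young females, so its groups overlapped. These are raw signals, not scaled between arrays, and were not tested.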

How the results depend on the processing

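The count of 9 called genes did not hold under every setting. It was 20 with the processed signal scaled to the 75th percentile, 4 with slide as a block and 5 with only reproducing and young arrays in the fit, and lay between 8 and 12 under the other 11 processing alternatives. The full probe set and 6 trimming rounds each called the same 9 genes. With an array left out the count ranged from 0 to 12. It was 0 without young replicate 16 (14 genes at an unadjusted p under 0.05) or young replicate 17 (16 genes), and 4 without reproducing replicate 23 or 40. Genes called higher, 2 here, numbered 1 with VSN on spike-ins alone or slide as a block, 11 with the 75th percentile of the processed signal, 6 with normexp and the 75th percentile, 7 with normexp and quantile normalization, and 0 to 2 with an array left out. Housekeeping scaling called 3 higher and 5 lower. Genes called lower, 7 here, numbered 3 with slide as a block or only the 6 arrays, and 0 to 10 with an array left out.

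Without reproducing replicate 40, the 4 called genes became 9 with a trimming quantile of 0.9, 18 with the 75th percentile and 15 with the housekeeping mean of the processed signal, 16 and 12 with normexp and the 75th percentile or quantiles, 16 with only reproducing and young arrays in the fit, and 0 with slide as a block (13 genes at an unadjusted p under 0.05). *Ddc* and *tilB* were called under all 14 processing alternatives with every array in, *cpo* under 13, *slo* and *Hsp26* under 12, *stv* under 11, *shakB* and *so* under 10, and *ninaD* under 6. *Hsp26* lost its call when any 1 of the 6 reproducing and young arrays was left out, and *tilB* without reproducing replicate 22 or 23 or young replicate 16 or 17. Of the genes at an unadjusted p under 0.05 that were above background on some array, the sign turned only in *CG14650*, with 1.85e-04 under normexp and the 75th percentile. The groups share no replicate numbers, so arrays were paired by slide only.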

Other observations

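Signals of the same sequence differed within an array. The array held a pair of *CkIIalfa* probes with an identical sequence of 60 bases, of which 1 was among the 197. The copy used had raw signals of 9654, 6689 and 4796 in reproducing females, against 3820, 5229 and 3952 in young females. The copy left out had 8817, 6419 and 1596 in reproducing females, against 3720, 1091 and 1355 in young females. The copies thus lay close on reproducing replicates 22 and 23 and young replicate 12, and apart on the other arrays.

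The *Gapdh1* probes also parted on reproducing replicate 40. The first had raw signals of 58011, 46154 and 25723 in reproducing females, against 62923, 76729 and 73051 in young females, and the second 23816, 17762 and 2283 in reproducing females, against 28323, 31438 and 29117 in young females. Among the complementary probe pairs, the *spin* probe of the 197 had 1214, 931 and 398 in reproducing females, against 730, 1029 and 948 in young females, while its complement stayed between 61.3 and 95.5 on all 6 arrays.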
